A study of Mus musculus with 9 samples.

Results

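FGF receptors and FGF ligands were followed in mouse primary calvarial pre-osteoblasts in which HIF-1α or HIF-2α was overexpressed. The genes were picked by symbol, with earlier results of these data known, and number 10 of the 40213 symbols in the count tables: the receptors Fgfr1, Fgfr2, Fgfr3, Fgfr4 and Fgfrl1 and the ligands Fgf2, Fgf7, Fgf9, Fgf10 and Fgf18. The cells came from the calvaria of 3-day-old WT pups and were all kept under normoxia in osteogenic medium with L-AA (50 μg/ml) and β-Gp (5 mM). They were infected on day 3 with a control adenovirus (Ad-C, the group labelled WT), with one that carries Hif1a (Ad-Hif1a) or with one that carries Hif2a (Ad-Hif2a), whose gene symbol is Epas1, and total RNA was taken on day 6. Each group had 3 libraries. The vector acts in every cell type that it infects in these mixed primary cultures. The study states for its experiments in general that n counts independent experiments or mice, but the labels do not tie these replicates to separate cultures or animals, so p-values measure the spread between these libraries.

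FGF ligands are secreted proteins that bring FGF receptors together with heparan sulfate at the cell surface, and the receptors then signal through adaptor proteins to the Ras and ERK pathway. Fgfr1, Fgfr2 and Fgfr3 exist as IIIb and IIIc splice forms with different ligands: FGF7 and FGF10 act on the IIIb form of FGFR2, while FGF2, FGF9 and FGF18 act mainly on IIIc forms. Counts per gene do not part these forms. FGF signaling is known to govern growth of the skull bones and sutures, and activating mutations of human FGFR2 and FGFR3 cause craniosynostosis and dwarfism. The comparisons with Ad-C ask how these genes change with each vector, and the third comparison asks where the 2 vectors differ.

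The libraries held 14372589 to 18623403 counts, and 14413 genes, all 10 FGF genes among them, passed the filter on low counts. Levels are given as CPM, the count of a gene scaled to the library total and its TMM factor, and a gene is said to rise or fall at an adjusted p under 0.05 in the quasi-likelihood test of edgeR. The vector genes followed their labels: Hif1a was at 186 to 193 CPM in Ad-C cells and 1240 to 2325 CPM in Ad-Hif1a cells, and Epas1 was at 41.9 to 48.8 CPM in Ad-C cells and 823 to 2181 CPM in Ad-Hif2a cells. Epas1 was also at 407 to 679 CPM in Ad-Hif1a cells, and Hif1a at 447 to 585 CPM in Ad-Hif2a cells. Each vector thus came with more transcript of both HIF-α genes, and their separate effects cannot be told apart here. Ad-Hif1a replicate 1 and Ad-Hif2a replicate 3 are called here the libraries that stood apart. They had the lowest level of their own vector gene and the lowest share of mitochondrial counts in their group. Those shares were 2.95% and 2.82%, against 3.69 to 5.77% in the other 4 vector libraries. For Ad-Hif1a the label is loose, since the shares were 2.95, 3.69 and 5.55% in replicates 1 to 3. By this share replicate 3 lay farther from replicate 2 than replicate 1 did. Ad-Hif1a replicates 1 and 3 also had the same lowest correlation within their group, 0.969. All 11 osteoblast markers were detected in every group. Their sums were 57865 to 63310 CPM in Ad-C, 50668 to 54002 in Ad-Hif1a and 45164 to 52267 in Ad-Hif2a cells. These sums follow Col1a1, Col1a2 and Spp1, at 40532, 16369 and 3583 CPM on average in Ad-C cells. With each vector, log2 fold changes were below 0 for 9 markers and above 0 for 2. Runx2 averaged 92.8, 50.5 and 43.9 CPM in Ad-C, Ad-Hif1a and Ad-Hif2a cells. Spp1 averaged 3583, 4619 and 5516 CPM in the same order. By the test, 0 markers rose with either vector, while 4 fell with Ad-Hif1a and 6 fell with Ad-Hif2a.

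With Ad-Hif1a, 3 of the 10 FGF genes passed the test: Fgfr2 and Fgfr3 fell and Fgf10 rose. Over all genes tested, 11.3% passed in this comparison (6.04% rose and 5.22% fell). With Ad-Hif2a the same 3 genes passed in the same directions and Fgfr4 fell as well, so 4 of 10 passed, against 15.6% of all genes tested (7.87% rose and 7.72% fell). Fgfr4 met the filter on low counts through the Ad-C libraries alone, so its fall is no independent support for this count. Between the vectors 0 of the 10 passed, as did 0% of all genes, and 0 of the 10 had an unadjusted p under 0.05 in edgeR; DESeq2 called 0 of them as well. Without Ad-Hif2a replicate 3, 6 of the FGF genes passed with each vector, and without any 1 of the Ad-C libraries 2 passed, Fgfr2 and Fgfr3. These counts come from a fit with the replicate number as a term, although libraries of the same number did not deviate together. Without that term 5 passed with each vector, since Fgf7 passed with both and Fgfr4 also with Ad-Hif1a. The libraries of the groups did not overlap for 6 of the FGF genes in Ad-Hif1a cells and 7 in Ad-Hif2a cells, where 50.4% and 49.5% of all genes did not overlap, so this count says little about the FGF genes. Between the vectors 1 of the 10, Fgfr4, did not overlap, against 6.27% of all genes. The Ad-C libraries are shared by both comparisons with control. Fgfr2 and Fgfr3 were named as down-regulated in the study from these samples, so their direction here is not independent evidence.

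**Figure D1:**
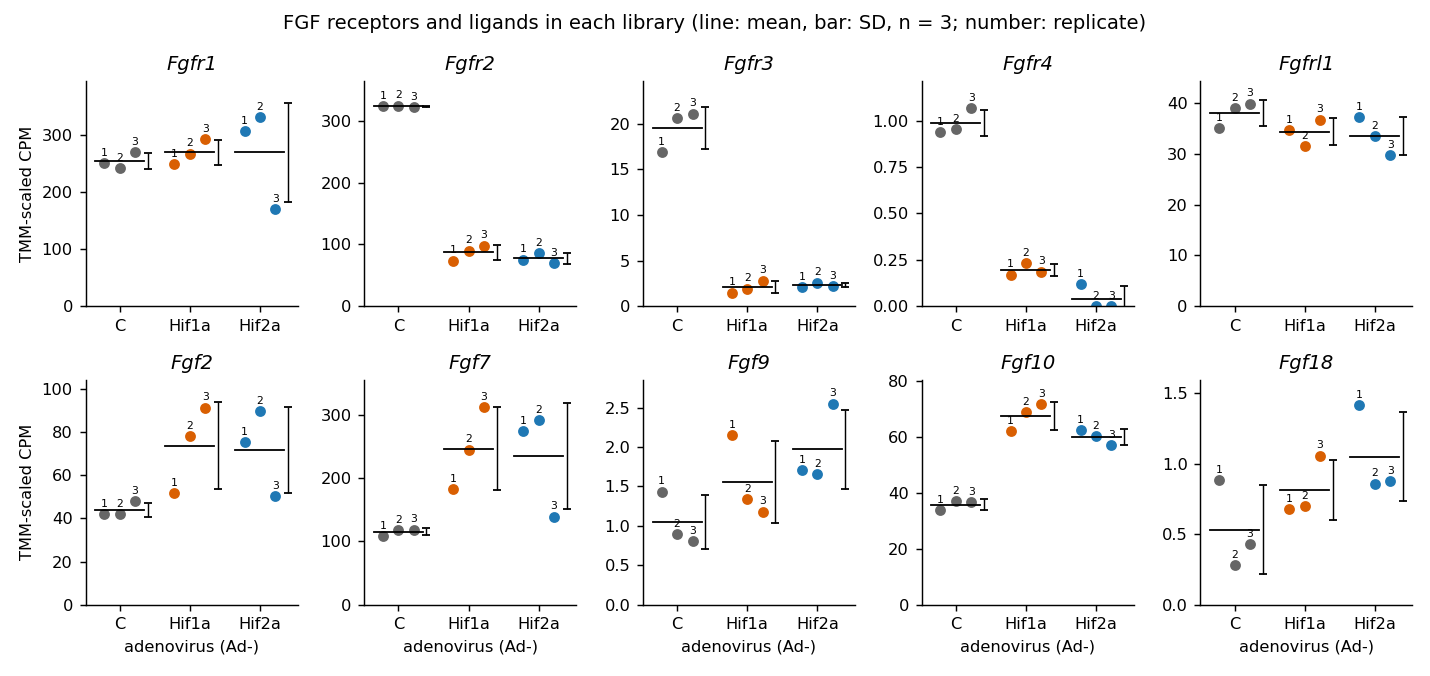
TMM-scaled CPM (vertical axes, each from 0) of the 10 FGF genes in each of the 9 libraries, with points numbered by replicate, a line at the group mean and a bar for the SD (n = 3). Fgfr2, Fgfr3 and Fgfr4 are lower in all 6 vector libraries than in the Ad-C libraries, Fgf10 is higher in all 6, and Ad-Hif2a replicate 3 lies low for Fgfr1, Fgf2 and Fgf7.

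Fgfr2, a receptor of osteoblast precursors that the sutures of the skull depend on, was the FGF receptor with the most counts in control cells. Its level was 324, 325 and 323 CPM in Ad-C replicates 1 to 3, 73.9, 90.1 and 98.2 CPM in Ad-Hif1a cells, and 75.6, 86.5 and 70.1 CPM in Ad-Hif2a cells. The controls lay within 3 CPM of each other and far above all 6 vector libraries, and the 2 vector groups overlapped. The log2 fold change was -1.90 with Ad-Hif1a (SE 0.16, edgeR adjusted p = 0.000711) and -2.07 with Ad-Hif2a (SE 0.16, edgeR adjusted p = 0.000409). That is a level 3.72-fold lower with Ad-Hif1a and 4.20-fold lower with Ad-Hif2a. The difference between the vectors was -0.17 (95% interval -0.54 to 0.20, edgeR adjusted p = 1.00).

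Fgfr3, which restrains the growth of cartilage cells in the growth plate, had the largest fitted fall of the FGF genes with Ad-Hif1a. Its level was 16.9, 20.6 and 21.1 CPM in Ad-C cells, 1.47, 1.92 and 2.80 CPM in Ad-Hif1a cells, and 2.12, 2.57 and 2.18 CPM in Ad-Hif2a cells. The lowest control library was well above the highest vector library. Fgfr3 was 9.58-fold lower with Ad-Hif1a (log2 fold change -3.26, SE 0.23, edgeR adjusted p = 0.000357) and 8.42-fold lower with Ad-Hif2a (-3.07, SE 0.23, edgeR adjusted p = 0.000334). The vectors differed by 0.19 (95% interval -0.36 to 0.74). The summed level of the 6 listed chondrocyte markers moved alongside: 190 to 213 CPM in Ad-C, 110 to 125 in Ad-Hif1a and 80.9 to 97.1 in Ad-Hif2a cells. In Ad-C cells this sum was nearly all Col2a1 and Sox9, at 119 and 78.3 CPM on average. Col9a1 averaged 2.61, 2.57 and 1.97 CPM in Ad-C, Ad-Hif1a and Ad-Hif2a cells. No chondrocyte marker was at 0 in every library of a group. Of the 5 chondrocyte markers tested, 1 fell with Ad-Hif1a (Col2a1) and 2 with Ad-Hif2a (Col2a1 and Sox9). Their part in the fall of Fgfr3 was not tested, and in bulk RNA fewer cells of a type and less RNA per cell cannot be told apart.

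Fgfr4, a receptor known in mice from liver bile acid control and from muscle progenitors, was near the floor of detection. The libraries held 17, 17 and 20 reads in Ad-C cells, 3, 4 and 3 in Ad-Hif1a cells, and 2, 0 and 0 in Ad-Hif2a cells. Fgfr4 was tested only because its Ad-C libraries met the filter on low counts, so a call could hardly be other than a fall. The 3 groups did not overlap. The summed reads, scaled for depth, gave a ratio to Ad-C of 0.199 with Ad-Hif1a (95% exact counting interval 0.0902 to 0.394) and 0.0420 with Ad-Hif2a (0.00496 to 0.159); these intervals cover counting error only. In the fit across genes, edgeR adjusted p was 0.0605 for Ad-Hif1a and 0.0126 for Ad-Hif2a. Fgfr4 passed for Ad-Hif1a as well without the replicate number as a term (edgeR adjusted p = 0.0186) and with DESeq2 (adjusted p = 0.0387). The call with Ad-Hif2a was lost without any 1 of the Ad-C libraries (adjusted p 0.0597 to 0.0764), and without Ad-Hif2a replicate 1 that group held 0 reads. The counting ratio of Ad-Hif2a to Ad-Hif1a was 0.211 (0.0225 to 0.992), and the edgeR test between the vectors gave an adjusted p of 1.00. The summed level of the 10 listed skeletal muscle markers was also lower. It was 61.5 to 77.1 CPM in Ad-C cells, 9.07 to 10.9 CPM in Ad-Hif1a cells and 4.60 to 7.77 CPM in Ad-Hif2a cells. In Ad-C cells this sum was nearly all Myh1 and Myh8, at 57.7 and 11.7 CPM on average, so it does not describe the whole list. Myh8 met the filter on low counts through the Ad-C libraries alone. Myog, Tnnc2 and Mylpf averaged higher with both vectors, at few reads. Of the 3 muscle markers tested, Myh1 and Myh8 fell and Acta1 rose with both vectors, and Myod1 was at 0 in every library, Pax7 in the Ad-C and Ad-Hif2a libraries and Ckm in the Ad-Hif1a libraries. Their part in the fall of Fgfr4 was not tested.

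Fgfr1, the other main FGF receptor of the osteoblast lineage, did not pass the test with either vector. It was at 251, 243 and 270 CPM in Ad-C cells, 249, 268 and 293 CPM in Ad-Hif1a cells, and 307, 332 and 171 CPM in Ad-Hif2a cells. The groups overlapped, and Ad-Hif2a replicate 3 was the lowest of the 9 libraries while the other Ad-Hif2a libraries were the highest. The log2 fold change was 0.08 with Ad-Hif1a (95% interval -0.50 to 0.66, edgeR adjusted p = 0.847) and 0.06 with Ad-Hif2a (95% interval -0.53 to 0.64, edgeR adjusted p = 0.879). Without Ad-Hif1a replicate 1 and Ad-Hif2a replicate 3, the value with Ad-Hif2a became 0.38 (edgeR adjusted p = 0.0281), so the Fgfr1 result with this vector rests on which libraries are kept. Fgfrl1, a receptor-like protein that lacks the kinase domain, spanned 35.1 to 39.9 CPM in Ad-C cells, 31.5 to 36.7 CPM in Ad-Hif1a cells and 29.7 to 37.2 CPM in Ad-Hif2a cells. Its log2 fold changes of -0.15 and -0.18 did not pass the test (SE 0.16 each, edgeR adjusted p = 0.580 and 0.433).

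The makeup of the receptor transcripts differed between control and vector cells. To compare receptors with each other, CPM was divided by the length of the longest coding transcript of each gene in kb. Fgfr2 made up 57.6 ± 1.38% (SD, n = 3) of the summed CPM per kb of Fgfr1 to Fgfr4 in Ad-C cells, 27.2 ± 1.39% with Ad-Hif1a and 25.8 ± 5.43% with Ad-Hif2a. Fgfr1 made up 38.7 ± 1.31%, 72.1 ± 1.50% and 73.4 ± 5.62% in the same order. Thus control cells held more Fgfr2 than Fgfr1 transcript by this measure, and each of the 6 vector libraries held more Fgfr1 than Fgfr2. The share of Fgfr3 was 3.52 ± 0.38% with Ad-C, 0.644 ± 0.15% with Ad-Hif1a and 0.784 ± 0.20% with Ad-Hif2a, and Fgfr4 was below 0.3% in every library. The ratio of Fgfr1 to Fgfr2 counts within a library, which needs no scaling between libraries, was 0.746 to 0.835 in Ad-C cells, 2.97 to 3.37 in Ad-Hif1a cells and 2.44 to 4.06 in Ad-Hif2a cells. Ad-Hif2a replicate 3 had the lowest ratio of the vector libraries and still lay above every control. These shares and ratios were not tested, since they restate the receptor levels.

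**Figure D2:**
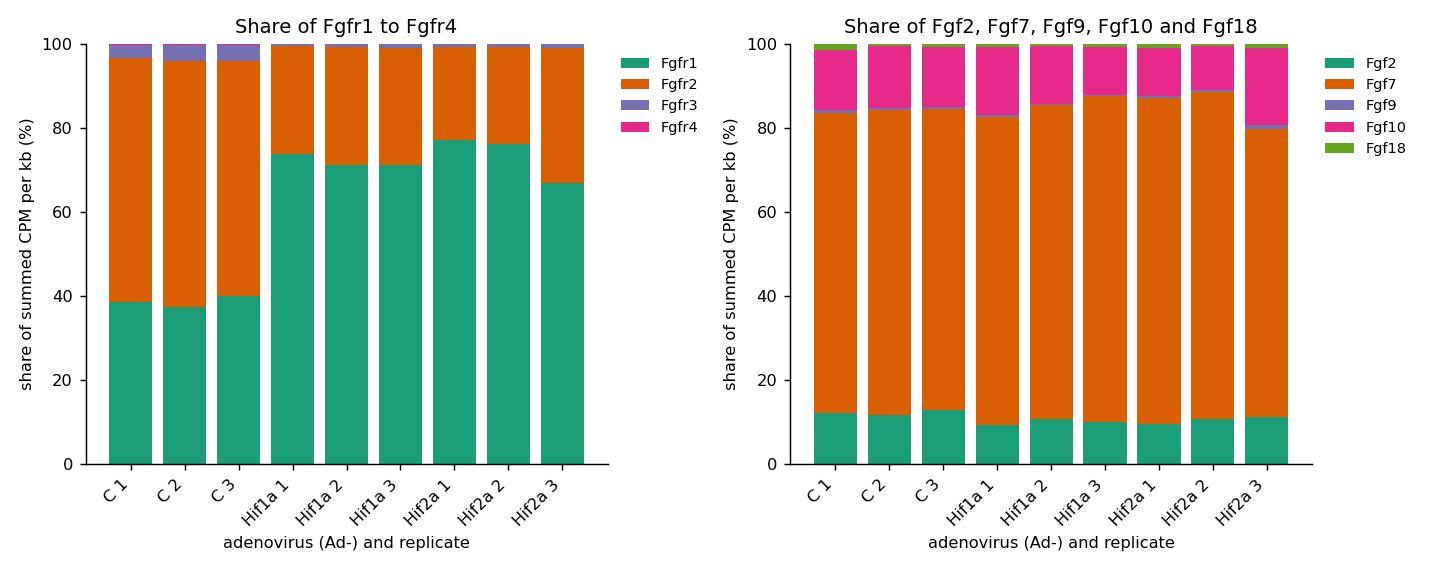
Share (%) of each gene in the summed CPM per kb of Fgfr1 to Fgfr4 (left) and of the 5 ligands (right), with 1 bar for each library. Fgfr2 is 56.0 to 58.6% of the receptor sum with Ad-C and at most 32.1% in a vector library, while Fgf7 is 68.6 to 77.9% of the ligand sum in all 9 libraries.

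Fgf10, a mesenchymal ligand of the IIIb form of FGFR2 that mouse limb and lung buds require, was the only one of the 5 ligands described here that rose with both vectors. It was at 33.7, 37.0 and 36.8 CPM in Ad-C cells, 62.0, 68.9 and 71.8 CPM in Ad-Hif1a cells, and 62.6, 60.2 and 57.0 CPM in Ad-Hif2a cells. All 6 vector libraries were above all controls, the 2 libraries that stood apart among them. Fgf10 was 1.88-fold higher with Ad-Hif1a (log2 fold change 0.91, SE 0.14, edgeR adjusted p = 0.00702) and 1.68-fold higher with Ad-Hif2a (0.74, SE 0.14, edgeR adjusted p = 0.0127). The call was lost without any 1 of the Ad-C libraries (adjusted p 0.0553 to 0.0812 for Ad-Hif1a and 0.0728 to 0.120 for Ad-Hif2a), without Ad-Hif1a replicate 2 (0.0697, with Ad-Hif1a) and without Ad-Hif2a replicate 1 (0.0688, with Ad-Hif2a), while the log2 fold changes stayed at 0.66 or above.

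Fgf7, known as keratinocyte growth factor and made by mesenchymal cells for epithelial neighbours, was the ligand with the most counts. It was at 109, 118 and 119 CPM in Ad-C cells, 182, 245 and 312 CPM in Ad-Hif1a cells, and 275, 292 and 139 CPM in Ad-Hif2a cells. All vector libraries lay above the controls, but their spread was wide, with the lowest value of each vector group in the library that stood apart. The log2 fold changes of 1.10 (SE 0.32, edgeR adjusted p = 0.0715) and 1.02 (SE 0.32, edgeR adjusted p = 0.0723) did not pass the test. Without the replicate number as a term Fgf7 passed with both vectors (edgeR adjusted p = 0.0251 and 0.0264), as it did with DESeq2 (adjusted p = 0.0079 and 0.0116), so its call depends on the fit. Without Ad-Hif2a replicate 3 the log2 fold changes were 1.07 and 1.40 and passed (edgeR adjusted p = 0.000146 and 6.04e-05).

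Fgf2, a heparin-binding ligand stored in bone matrix, showed the same arrangement of libraries as Fgf7. It was at 42.0, 42.1 and 47.9 CPM in Ad-C cells, 51.8, 78.2 and 91.4 CPM in Ad-Hif1a cells, and 75.6, 89.9 and 50.5 CPM in Ad-Hif2a cells. The groups did not overlap with the controls, and again the libraries that stood apart were nearest to them. The log2 fold changes of 0.73 and 0.71 (SE 0.27 each, edgeR adjusted p = 0.141 and 0.119) did not pass. Without Ad-Hif2a replicate 3 they were 0.71 and 1.02 and passed (edgeR adjusted p = 0.00265 and 0.000789).

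Fgf9 and Fgf18, ligands of IIIc receptors that mouse skeletal growth requires, were low in all groups. Fgf9 had 15 to 26 reads per library with Ad-C, 19 to 38 in Ad-Hif1a cells and 29 to 35 in Ad-Hif2a cells. Its log2 fold changes were 0.57 (SE 0.37, edgeR adjusted p = 0.367) and 0.95 (SE 0.37, edgeR adjusted p = 0.126). Fgf18 had 5 to 16 reads in Ad-C cells, 12 to 17 in Ad-Hif1a cells and 12 to 24 in Ad-Hif2a cells, with log2 fold changes of 0.69 (SE 0.47, edgeR adjusted p = 0.385) and 1.02 (SE 0.46, edgeR adjusted p = 0.161). Neither gene passed the test with either vector, and the upper 95% bounds of the log2 fold changes were 1.45 and 1.82 for Fgf9 and 1.78 and 2.09 for Fgf18. For Ad-Hif2a the summed reads, scaled for depth, had a ratio to Ad-C of 1.85 for Fgf9 (95% exact counting interval 1.32 to 2.62) and 1.99 for Fgf18 (1.24 to 3.26). These intervals leave 1 out but cover counting error only, and the test takes in the spread between libraries.

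**Figure D3:**
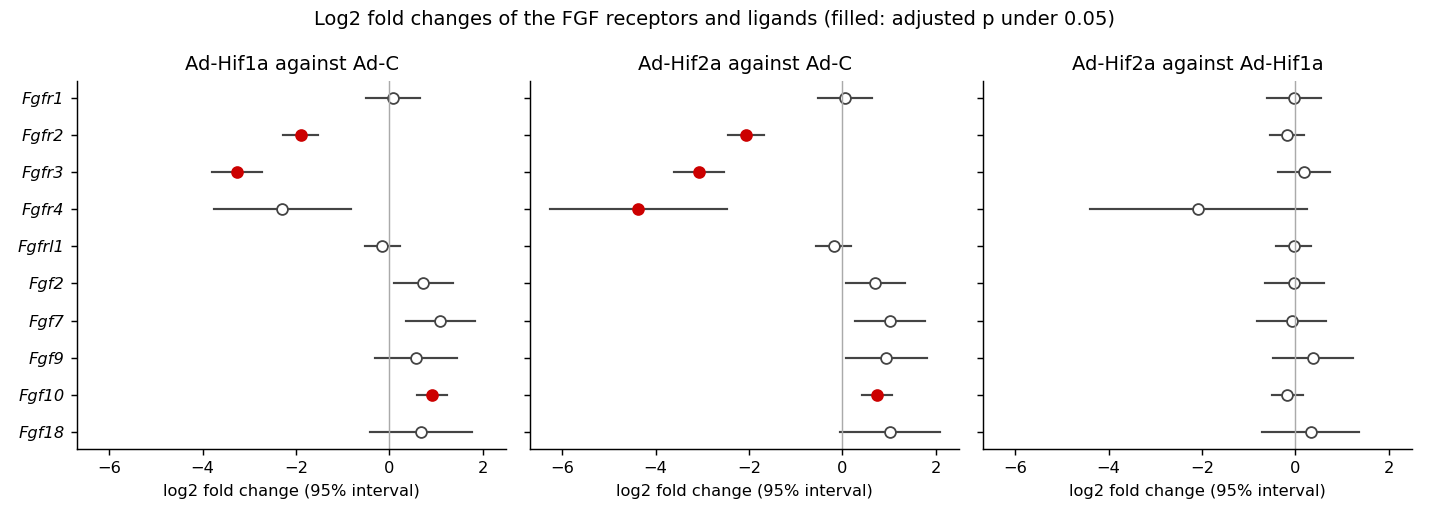
Log2 fold changes (horizontal axes) of the 10 FGF genes in the 3 comparisons, with 95% intervals; filled points passed the test at an adjusted p under 0.05. Fgfr2 and Fgfr3 lie far below 0 and Fgf10 above 0 in both comparisons with Ad-C, and in the comparison of the 2 vectors every interval holds 0.

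Per kb of transcript, the order of the FGF genes differed between control and vector cells. With Ad-C the order by mean CPM per kb was Fgfr2 (75.2), Fgfr1 (50.5), Fgf7 (43.1), Fgfrl1 (16.3), Fgf10 (8.71), Fgf2 (7.37) and Fgfr3 (4.60), with no overlap between neighbours. Fgf18, Fgfr4 and Fgf9 followed below 0.5 and overlapped. With Ad-Hif1a the order began with Fgf7 (92.3), Fgfr1 (53.5) and Fgfr2 (20.3). Fgfr2 overlapped there with Fgf10 (16.4), Fgf10 with Fgfrl1 (14.7) and Fgfrl1 with Fgf2 (12.4). With Ad-Hif2a the order was the same down to Fgf2, with Fgf7 at 88.0 and Fgfr1 at 53.5, which overlapped, Fgfr2 at 18.0, and Fgf10 (14.6), Fgfrl1 (14.4) and Fgf2 (12.0), which overlapped. Fgf7 made up 71.9 ± 0.77%, 75.2 ± 2.13% and 74.7 ± 5.29% of the 5 ligands in control, Ad-Hif1a and Ad-Hif2a cells. The order depends on the length used. By coding length Fgf7 came first in Ad-C cells already, at 187, 203 and 204 CPM per kb in replicates 1 to 3. Fgfr2 was then at 129, 129 and 128 CPM per kb. Fgf2, at 90.8, 91.1 and 104, then overlapped with Fgfr1, at 101, 97.2 and 108. The share of Fgf2 in the ligand sum with Ad-C was 12.3% by transcript length and 27.0% by coding length.

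The promoter sequences of Fgfr2, Fgfr3 and Fgf10, the FGF genes that passed with both vectors, are shown because both HIF-α proteins bind the hypoxia-responsive element, whose core is ACGTG or GCGTG. RefSeq promoter windows of 300 bases (250 before and 50 after a start site, build GRCm38.p6) were found for 9 of the 10 genes. Fgfr1 had none, and there were 10 windows in all. Both cores were searched on both strands, and capitals mark each match; ACGTG on both strands overlaps where the letters read CACGTG. Fgfr3 is shown at the first of its 2 start sites (chr5:33721474-33721773, plus strand), Fgfr2 at its 1 listed site (chr7:130266759-130267058, minus strand) and Fgf10 likewise (chr13:118714449-118714748, plus strand), each 5′ to 3′ along the gene.
Fgfr3: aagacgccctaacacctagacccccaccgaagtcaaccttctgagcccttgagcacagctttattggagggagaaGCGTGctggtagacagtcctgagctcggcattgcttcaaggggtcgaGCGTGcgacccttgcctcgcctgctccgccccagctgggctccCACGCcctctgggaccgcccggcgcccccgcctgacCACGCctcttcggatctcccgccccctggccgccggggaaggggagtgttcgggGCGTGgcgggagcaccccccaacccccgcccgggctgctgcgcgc
Fgfr2: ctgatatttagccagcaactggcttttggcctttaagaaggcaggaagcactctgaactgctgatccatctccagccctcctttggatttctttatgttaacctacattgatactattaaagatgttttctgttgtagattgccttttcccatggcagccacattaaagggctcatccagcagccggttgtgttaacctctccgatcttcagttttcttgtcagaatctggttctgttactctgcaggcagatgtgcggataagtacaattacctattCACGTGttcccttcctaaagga
Fgf10: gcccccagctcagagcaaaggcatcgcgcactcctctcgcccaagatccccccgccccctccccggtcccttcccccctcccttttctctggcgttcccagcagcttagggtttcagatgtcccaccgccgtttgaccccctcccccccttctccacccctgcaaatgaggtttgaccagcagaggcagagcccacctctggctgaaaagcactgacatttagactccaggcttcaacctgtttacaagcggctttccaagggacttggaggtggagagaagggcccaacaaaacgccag

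The printed Fgfr3 window holds 5 matches, all of GCGTG, and the window at its second start site holds 1. The Fgfr2 window holds 1 CACGTG, which counts as a match on each strand and lies 28 to 33 bases after the listed start, counted from 0 at the start. The nearest start of a coding Fgfr2 transcript in GENCODE vM21 is 545 bases downstream of that listed start, so this window does not lie next to it. The Fgf10 window holds no match, and neither does that of Fgf18. Matches number 3 for Fgfr4, 2 for Fgfrl1 (a single CACGTG), 1 for Fgf2, 3 for Fgf7 and 1 for Fgf9. In all, 8 of the 10 windows hold a match, against 43.8% of the 32851 windows of the same length in the table. Fgfr3 enters with both of its windows, and base composition was not matched between the sets. These shares are therefore no measure of enrichment. Of the genes that passed, Fgfr2, Fgfr3 and Fgfr4 thus have these letters near a listed start and Fgf10 does not. Of those that did not pass, Fgfrl1, Fgf2, Fgf7 and Fgf9 have them and Fgf18 does not. A match is a description of the letters and not a binding site.

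Genes with the most similar pattern over the 9 libraries were sought among the tested genes with an average log2 CPM over 4, by the root mean square (RMS) difference of log2 CPM after centring each gene. Fgfr2 was nearest to Cd93 (RMS 0.12) and Cd84 (0.13), and its own SD over the libraries was 1.00. Cd84 is a surface receptor of leukocytes and Cd93 one of myeloid and endothelial cells. The 8 listed macrophage markers summed to less with both vectors: 878 to 929 CPM in Ad-C, 333 to 336 in Ad-Hif1a and 334 to 394 in Ad-Hif2a cells. Mrc1 averaged 205, 15.7 and 9.72 CPM in that order, but Adgre1 117, 101 and 116 and Cd14 72.5, 55.0 and 68.6 CPM. C1qa in Ad-Hif2a replicate 3, at 96.6 CPM, lay above every control. No macrophage marker was at 0 in a whole group, and 5 of the 8 fell with each vector. Their part in the fall of Fgfr2 was not tested. For Fgf10 the nearest genes were Sema3c and Stk38l (0.08 each), for Fgf7 Il1rap (0.08) and Pdgfra (0.09), and for Fgf2 Acsl4 and Slit2 (0.09 each). Fgfr1 was nearest to Alg2 (0.06) and Syvn1 (0.07), and Fgfrl1 to Lpin1 (0.06) and Gorasp1 (0.07). For the remaining genes the smallest difference was 0.39 for Fgfr3 (Plxnc1, then Pgm5 at 0.42), 0.45 for Fgfr4 (Snai2, then Shank1 at 0.49), 0.15 for Fgf9 (Sac3d1, then Nbl1 at 0.17) and 0.34 for Fgf18 (Gadd45b and Slc6a8).

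The other FGF family members were mostly silent. The list of 17 includes Fgf11 to Fgf14, which are intracellular and not secreted ligands. Of 17, 5 had enough counts to be tested, with Fgf1 and Fgf21 as the only secreted ligands among them. In this list 2 rose with both vectors while 0 fell, a share of 40% where 11.3% (Ad-Hif1a) and 15.6% (Ad-Hif2a) of all genes passed. Fgf21 met the filter on low counts only through vector libraries, so its rise is no independent support for this share. Fgf5 missed the filter, with 31 summed reads in Ad-C, 8 in Ad-Hif1a and 10 in Ad-Hif2a cells. The calls rest on single libraries: leaving out 1 at a time gave 0 to 2 rises and 0 to 3 falls for Ad-Hif1a, with no rise left without any 1 of the Ad-C libraries and 3 falls without Ad-Hif2a replicate 3, and 0 to 2 rises and 0 to 1 falls for Ad-Hif2a. Fgf21, an endocrine ligand that needs the co-receptor Klb and is known as a stress-induced gene, had 1, 0 and 2 reads in Ad-C cells, 14, 20 and 11 in Ad-Hif1a cells, and 6, 26 and 45 in Ad-Hif2a cells. Every vector library was above every control, at low counts. Against Ad-C, the summed reads scaled for depth had a ratio of 16.1 (95% exact counting interval 5.17 to 81) in Ad-Hif1a cells and 29.1 (9.6 to 144) in Ad-Hif2a cells (edgeR adjusted p = 0.0415 and 0.0180). Both intervals cover counting error only and leave out the spread between libraries. Fgf12, an intracellular member of the family that binds sodium channels, rose by 1.11 and 1.31 on the log2 scale (SE 0.26 each, edgeR adjusted p = 0.0349 and 0.0156), from 27 to 39 reads in Ad-C cells to 57 to 74 and 68 to 75. Fgf1, the closest relative of Fgf2, had 29 to 43 reads in Ad-C cells, 10 to 15 in Ad-Hif1a cells and 10 to 27 with Ad-Hif2a (log2 fold changes -1.45 and -0.82, edgeR adjusted p = 0.0714 and 0.199). Fgf13, related to Fgf12, was at -1.29 and -1.27 and did not pass (edgeR adjusted p = 0.0895 and 0.0723).

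Co-receptors and FGF-binding proteins moved both ways. Of 8, 5 were tested; 2 fell with Ad-Hif1a and 0 rose, and 2 fell and 1 rose with Ad-Hif2a, which is 40% and 60% of those tested where 11.3% and 15.6% of all genes passed. With any 1 of the Ad-C libraries left out, 0 passed for Ad-Hif1a, as without Ad-Hif1a replicate 2, and 1 fell and 0 rose for Ad-Hif2a. The falls were Flrt1, a membrane protein that binds FGF receptors (log2 fold changes -1.51 and -1.73, edgeR adjusted p = 0.0126 and 0.00607), and Il17rd, also called Sef, an inhibitor of FGF signaling (-1.40 and -1.16, edgeR adjusted p = 0.0159 and 0.0247). Fgfbp3, a carrier that releases FGFs from the matrix, rose by 1.32 with Ad-Hif2a (edgeR adjusted p = 0.0286) and was at 0.65 with Ad-Hif1a (adjusted p = 0.233). Flrt2 did not pass, at -0.13 and -0.43 (adjusted p = 0.861 and 0.486). Kl and Klb, the co-receptors of the endocrine FGFs, were at 0 in all Ad-C and Ad-Hif1a libraries.

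Heparan sulfate, the sugar that holds FGFs on their receptors, is made and carried by 29 listed genes, of which 27 were tested. With Ad-Hif1a 2 rose and 4 fell, and with Ad-Hif2a 4 rose and 5 fell, with median log2 fold changes of -0.13 and -0.26 where the median of all genes was 0.01 in both. That is 22.2% and 33.3% of those tested, where 11.3% and 15.6% of all genes passed. With 1 library left out the counts ran from 0 to 6 rises and 0 to 7 falls for Ad-Hif1a, and from 0 to 6 rises and 1 to 6 falls for Ad-Hif2a. For Ad-Hif1a 0 passed without any 1 of the Ad-C libraries or without Ad-Hif1a replicate 1 or 2, and the highest counts came without Ad-Hif2a replicate 3. The core protein Sdc2 fell by 0.91 and 1.11 on the log2 scale (edgeR adjusted p = 0.0122 and 0.00457) while the core protein Sdc1 rose by 0.61 and 0.74 (edgeR adjusted p = 0.0317 and 0.0121). Ext1, part of the enzyme that polymerizes the chain, rose by 0.83 with each vector (edgeR adjusted p = 0.0105 and 0.00863), and Hpse, the enzyme that cleaves it, fell by 1.63 and 1.88 (edgeR adjusted p = 0.0293 and 0.0149). The other falls in both comparisons were Gpc6 and Hs3st3a1. Sdc4 and Hs3st1 rose and Sulf2 fell with Ad-Hif2a, and their difference between the vectors did not pass the test. Hs3st1 met the filter on low counts only through vector libraries.

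Of the 12 adaptors that link FGF receptors to Ras and ERK, all were tested and 1 fell with each vector, a share of 8.33% where 11.3% and 15.6% of all genes passed. Without any 1 of the Ad-C libraries 0 fell with either vector, and without Ad-Hif2a replicate 3 the count for Ad-Hif1a was 5. The gene was Gab1, a docking protein (log2 fold change -0.73 with each, edgeR adjusted p = 0.0355 and 0.0295). The next lowest p-values were those of Crkl, Frs2 and Sos1, which did not pass, with log2 fold changes of -0.46 and -0.56, -0.35 and -0.47, and -0.62 and -0.74. Frs2 is the docking protein through which FGF receptors reach most of these adaptors.

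The 13 feedback and target genes of FGF signaling are induced by the ERK pathway in many tissues, and all were tested. With Ad-Hif1a 1 rose and 3 fell, and with Ad-Hif2a 2 rose and 3 fell, with medians of -0.52 and -0.36, or 30.8% and 38.5% of the list where 11.3% and 15.6% of all genes passed. With 1 library left out the counts ran from 0 to 4 rises and 0 to 7 falls for Ad-Hif1a, highest without Ad-Hif2a replicate 3 and with 0 falls without Ad-C replicate 1 or 2 or Ad-Hif1a replicate 2. For Ad-Hif2a they ran from 0 to 4 of each, with 0 falls without any 1 of the Ad-C libraries or without Ad-Hif2a replicate 1. Dusp6, the phosphatase that switches ERK off, was at 28.9 CPM on average in Ad-C cells, 14.2 CPM in Ad-Hif1a cells and 15.9 CPM with Ad-Hif2a (log2 fold changes -1.04 and -0.87, edgeR adjusted p = 0.0078 and 0.0123). Etv5, an ETS transcription factor, fell by 0.82 and 0.69 on the log2 scale (edgeR adjusted p = 0.00896 and 0.0142), and Spred1, an inhibitor of Ras signaling, fell by 0.73 and 0.69 (edgeR adjusted p = 0.0261 and 0.0248). Spry2, another feedback inhibitor, went the other way, from 12.5 to 26.3 and 25.1 CPM (1.07 and 0.99, edgeR adjusted p = 0.00683 and 0.00761). The second rise with Ad-Hif2a was Spred3. These genes answer to other ERK inputs too, so their levels do not measure FGF receptor activity.

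**Figure D4:**
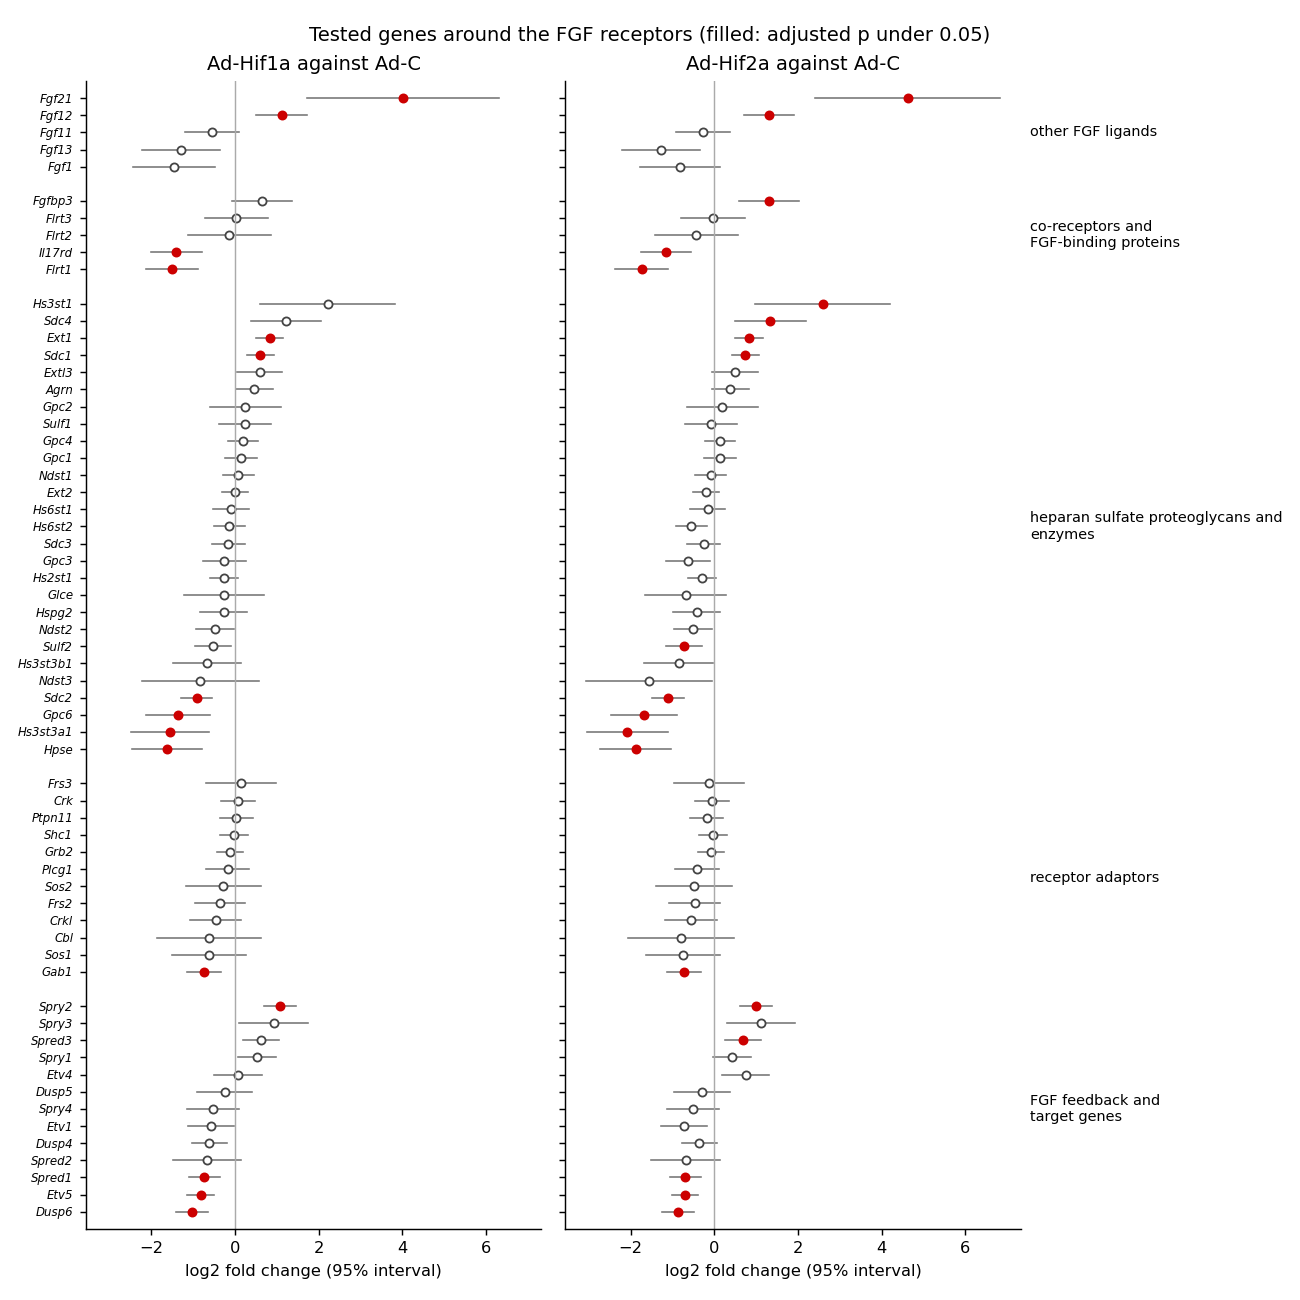
Log2 fold changes with 95% intervals (horizontal axes) of the tested genes in the 5 pathway lists, ordered within each list by the value with Ad-Hif1a; filled points passed the test. Rises and falls stand side by side in the heparan sulfate and feedback lists, and 1 of the 12 adaptors passed.

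The falls of Fgfr2 and Fgfr3 passed the test in all 18 alternative analyses of both comparisons, with log2 fold changes of -2.03 to -1.79 and -2.14 to -1.96 for Fgfr2 and -3.50 to -3.13 and -3.17 to -2.93 for Fgfr3. Fgf10 passed in 14 of 18 in each comparison and kept its direction in all 18. Fgfr4 passed in 5 of 17 for Ad-Hif1a and 14 of 17 for Ad-Hif2a, Fgf7 in 5 of 18 in each, and Fgf2 in 3 and 2 of 18. Fgfrl1, Fgf9 and Fgf18 passed in 0. Between the vectors 0 of the 10 genes passed in any alternative, and Fgfr4 had the largest difference (-2.08, 95% interval -4.40 to 0.24).

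**Figure D5:**
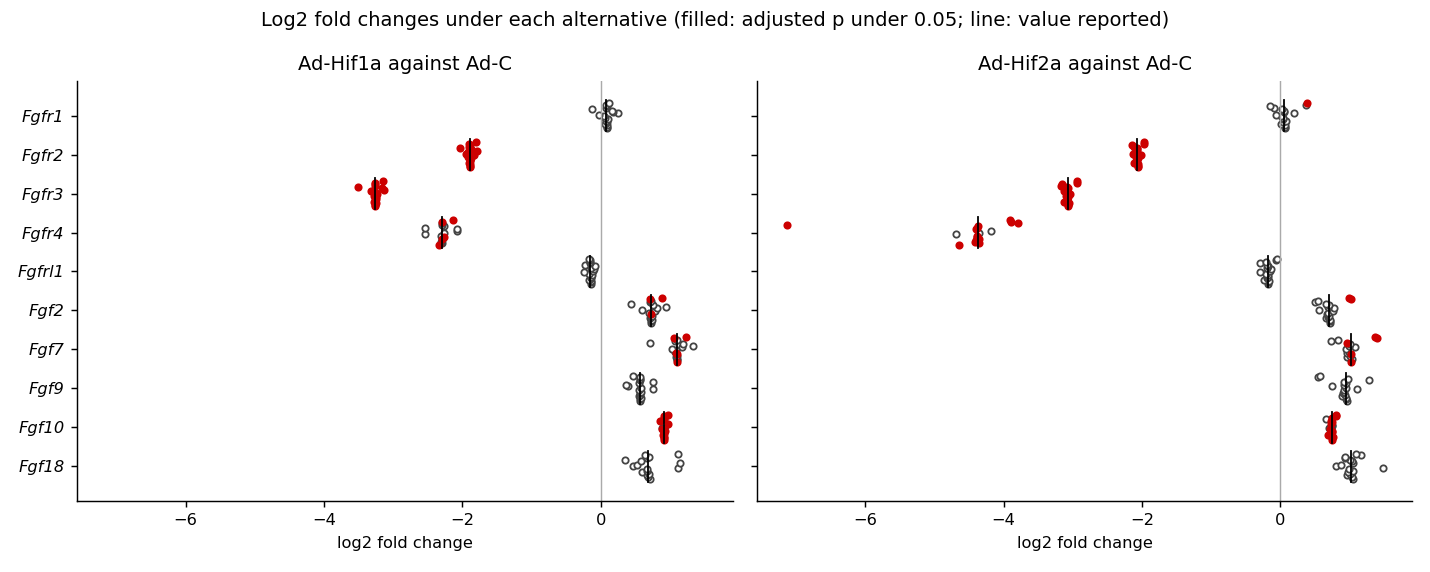
Log2 fold change (horizontal axes) of each FGF gene against Ad-C under each alternative analysis (points; filled where the adjusted p is under 0.05), with a vertical line at the value reported in the text. Fgfr2 and Fgfr3 stay filled throughout, Fgf10 in 14 of 18, and Fgf7 and Fgf2 pass in a few.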

How the data were processed

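RNA from 9 libraries, 3 per group, was made into libraries with the CORALL kit. The authors deposited read counts per gene symbol, as whole numbers without normalization; per the labels their processing used bcl2fastq 2.20.0.422, fastp, STAR, Salmon and GRCm39, and the counting step, annotation and strand setting are not given in the sources used here. Genes that overlap or have near copies could therefore not be parted. Counts were fitted in R 4.3.3 with edgeR 4.0.16 (filterByExpr, TMM factors of 0.957 to 1.03, robust quasi-likelihood test) on all 9 libraries, with group and replicate number as terms because the study names a paired test, with Benjamini-Hochberg adjustment across 14413 genes. SEs are the log2 fold change over the square root of F. Levels between genes used transcript lengths of GENCODE vM21. In counts simulated at this depth the test found 18, 34 and 16% of genes changed 2-fold and 86, 80 and 84% of those changed 4-fold. These are for Ad-Hif1a against control, Ad-Hif2a against control and the vectors against each other. The counts were drawn from the Ad-C means with 1 spread per gene shared by all groups, and 50 genes changed at each fold. Real vector libraries were less alike than the Ad-C libraries, so these rates need not hold for them. Alternatives were no replicate block, DESeq2 1.42.0, RLE, upper-quartile or no composition factors, other filters, fits on the 6 libraries of a comparison, leaving out single libraries, and leaving out both libraries that stood apart. The FGF genes, the gene lists and these alternatives were chosen with earlier results of these data known. All 10 FGF genes are named, as are up to 4 genes of each list by lowest adjusted p, relatives of the FGF genes, and the 2 genes of most similar pattern. Further marker sums, with Ad-C and then with the vectors, were 4.60 to 5.19 and 1.70 to 2.80 CPM for 6 endothelial genes. Those of smooth muscle and pericyte were 2805 to 3013 and 2716 to 4179 CPM. Adipocyte sums were 9.94 to 12.6 and 8.20 to 13.1 CPM, and keratinocyte sums 0.221 to 0.481 and 0.354 to 1.11 CPM. Endothelial Kdr averaged 4.24 CPM in control cells, 1.31 in Ad-Hif1a cells and 0.842 in Ad-Hif2a cells. Pecam1 was higher in vector cells, at 0.0908, 0.529 and 1.05 CPM, and met the filter on low counts only through vector libraries. Adipocyte Pparg was lower, at 6.73, 0.902 and 1.16 CPM, and Fabp4 higher, at 4.58, 8.31 and 10.7. Of the 2 genes tested in each of these lists, 1 rose and 1 fell with Ad-Hif2a. With Ad-Hif1a 0 endothelial genes passed and 1 adipocyte gene fell.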

Additional observations from a re-analysis of the deposited data

How the results depend on the processing

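The count of FGF genes that passed was 3 with Ad-Hif1a and 4 with Ad-Hif2a. It was 5 without the replicate block, 5 with DESeq2 and 6 in the 6 libraries compared alone for Ad-Hif1a, and 6 and 7 without the 2 libraries that stood apart. Leaving out 1 library at a time gave 2 to 6 with either vector, and 0 between the vectors. The count over all genes, 1624, 2247 and 0 for Ad-Hif1a, Ad-Hif2a and the 2 vectors, became 2470, 3526 and 19 with DESeq2, 3452 (Ad-Hif2a) and 2 (between the vectors) without the replicate block, 4706 in the 6 libraries of Ad-Hif1a and Ad-C, 2 (between the vectors) with no filter, 4022, 4173 and 11 without the 2 libraries, and 441 to 5330, 688 to 3309 and 0 to 12 with 1 library left out. At an unadjusted p under 0.05, 338 genes differed between the vectors. Libraries with the same replicate number did not deviate together: 0 of 9 pairs had a correlation of deviations over 0.1, and 7 of 18 correlated best with their own number. This check showed no pairing by number but cannot exclude it. The highest correlation, 0.61, was between Ad-Hif1a replicate 1 and Ad-Hif2a replicate 3, and a weaker pairing could go unseen beside it. The cause of the shifts in the counts was not tested.

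Directions that reversed were all among values that did not pass. For Fgfr1, leaving out 1 library gave -0.12 to 0.25 with Ad-Hif1a, -0.14 to 0.38 with Ad-Hif2a and -0.23 to 0.30 between the vectors. Between the vectors the other ranges were -0.14 to 0.087 for Fgfrl1, -0.26 to 0.31 for Fgf2, -0.34 to 0.33 for Fgf7, -0.016 to 0.71 for Fgf9 and -0.092 to 0.66 for Fgf18. Without the 2 libraries that stood apart, the difference between the vectors was 0.26 for Fgfr1, 0.12 for Fgfrl1, 0.10 for Fgf2, 0.14 for Fgf7 and -0.027 for Fgf18. With coding length in place of transcript length, Fgfr1 made up 42.6% of the receptor sum with Ad-C and 75.3% with Ad-Hif1a, and Fgfr2 53.8% and 24.1%. The fitted value of Fgfr4 with Ad-Hif2a was -7.14 without Ad-Hif2a replicate 1, where no read was left in the group, and is no bound. With at least 10 counts in every library Fgfr4 and Fgf18 were not tested. Other scaling moved the median of all genes by at most 0.051 on the log2 scale (no composition factors, Ad-Hif2a). Few counts stand behind Fgfr4, Fgf9, Fgf18 and Fgf21, with under 50 reads in each library.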

Other observations

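Among the 12 other FGF family members with too few counts to be tested, Fgf5, a relative of Fgf4 and Fgf6 known for stopping hair growth, had the most reads in control cells: 8, 12 and 11 with Ad-C, 3, 3 and 2 with Ad-Hif1a, and 2, 8 and 0 with Ad-Hif2a. The relatives of the ligands described above were near 0: Fgf22 had 3, 3 and 1 reads with Ad-C and 0 or 1 in each vector library, Fgf16 had 0 to 6 reads in a library, Fgf8 and Fgf17 had 0 or 1, and Fgf3, Fgf6, Fgf20 and Fgf23 had 0 reads in all 9 libraries. Fgf5 was named after its values were seen.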
